A study of Mus musculus with 25 samples.

Results

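The precursors mmu-mir-142a, mmu-mir-150, mmu-mir-223 and mmu-mir-342 are miRNAs known from blood leukocytes. They were chosen by name from the rows of a count table of miRNA hairpins in mouse brain, and they make up 4 of its 1193 precursors. The libraries came from brain hemispheres of 25 male C57BL/6 mice, an inbred laboratory strain, with 5 animals at each of 2, 9, 15, 24 and 30 months of age. No treatment, transgene or mutation is named in the labels, so age is the one labelled factor that separates the groups. The ages also differ in which sequencing lanes their libraries used. Each library is small RNA made from total RNA of a whole hemisphere, and no sorting of cells is named. Each title carries its own animal number, and the 5 libraries of an age were taken as 5 animals, so that p-values measure the spread between these libraries.

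A miRNA is cut from a hairpin transcript by Drosha and Dicer and loaded into Argonaute, where its seed pairs with messenger RNAs and lowers their output. miR-142 is made in nearly all blood cell lineages, and mice without it have defects in several of them. miR-150 is abundant in mature B and T lymphocytes and restrains the transcription factor Myb. miR-223 marks the myeloid lineage, above all neutrophils, and limits their activation. miR-342 is encoded within the Evl gene and is found in leukocytes and also in brain tissue. In healthy brain such miRNAs could come from blood in the vessels, from microglia and border macrophages, or from neural cells, and bulk RNA does not separate these sources.

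The mature sequences that RefSeq (GRCm38.p6) gives for the 4 precursors are printed to show the RNAs these hairpins yield, with the seed (bases 2 to 8) in capitals. All 4 precursors had at least 1 entry, and miR-150-5p is named only.
miR-142a-5p: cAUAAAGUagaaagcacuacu
miR-142a-3p: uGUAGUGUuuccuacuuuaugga
miR-150-3p: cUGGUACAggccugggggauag
miR-223-5p: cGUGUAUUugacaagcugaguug
miR-223-3p: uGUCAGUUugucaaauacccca
miR-342-5p: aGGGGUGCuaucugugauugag
miR-342-3p: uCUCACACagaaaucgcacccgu
The 7 sequences had 7 different seeds, and no other mature entry of the table carried any of them. The deposited table counts a whole hairpin, so the arms of a precursor could not be told apart.

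By GENCODE M21 on GRCm38, mir-142a lies on chromosome 11 at 87756864 to 87756927 on the plus strand, in an intron of the noncoding Mir142hg. mir-150 lies on chromosome 7 at 45121757 to 45121821 on the plus strand and overlaps no other annotated gene. mir-223 lies on the X chromosome at 96242817 to 96242926 on the plus strand, within an exon of the noncoding F630028O10Rik. mir-342 lies on chromosome 12 at 108658620 to 108658718 on the plus strand, in an intron of Evl, which encodes a regulator of actin filaments.

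The mir-142a hairpin has a second annotated hairpin, mir-142b, on the opposite strand at 87756841 to 87756955. The pair is printed because it bears on how the mir-142a count can be read. In mir-142a the capitals mark the mature arms, and in mir-142b they mark the stretch that is the reverse complement of the whole mir-142a hairpin.
mir-142a: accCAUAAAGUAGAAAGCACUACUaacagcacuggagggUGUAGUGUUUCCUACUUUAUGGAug
mir-142b: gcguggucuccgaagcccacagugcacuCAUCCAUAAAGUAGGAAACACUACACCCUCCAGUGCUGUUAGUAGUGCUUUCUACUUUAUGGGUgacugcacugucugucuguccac
All 64 bases of mir-142a lie in mir-142b. All 20 bases of mature miR-142b lie in the reverse complement of miR-142a-3p, so the pair can be separated by strand only. The deposited counts of the pair were divided almost evenly in every library, with mir-142a holding between 48.1% and 51.5% and a median of 49.8%. Other opposite-strand pairs were as even: mir-451a and mir-451b held 0.0469% and 0.0470% of counts on average, and mir-486a and mir-486b 0.146% and 0.145%. Whether counting used the strand is not given in the sources used here. The mir-142a level below may thus be a part of a common pool with mir-142b, which bears on the size of its ratios to other members.

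The smallest library held 3.78 M reads and the largest 9.52 M, where M stands for mega. Levels are given as CPM, counts per mega-count with edgeR's TMM scaling of library size. mir-142a had between 1082 and 4105 reads per library, mir-150 between 2483 and 6909, and mir-342 between 2297 and 6410. mir-223 had between 30 and 154 reads per library and is the least precise of the 4. All 4 passed the filter on low counts that left 425 precursors for testing. The libraries were run on 6 sequencing lanes, each with several ages. In the 5 libraries of lane 3 the 4 precursors stayed within the range of the other lanes, apart from mir-142a, whose highest value over all libraries, 435 CPM, was in lane 3.

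The level of mir-142a was higher at 30 than at 2 months, by 0.39 ± 0.12 on the log2 scale (SE). That of mir-150 was lower, by -0.50 ± 0.07 (SE). Which cells carried either miRNA in these hemispheres was not tested. Neither mir-223 nor mir-342 passed the test. Of the 4 leukocyte-associated miRNAs 1 was thus called higher and 1 lower, where 36.9% of all tested precursors were called. Ratios within a library changed for 3 of the 6 pairs of members. These pairs are all formed from mir-142a, mir-150 and mir-342, so they are not separate results.

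**Figure D1:**
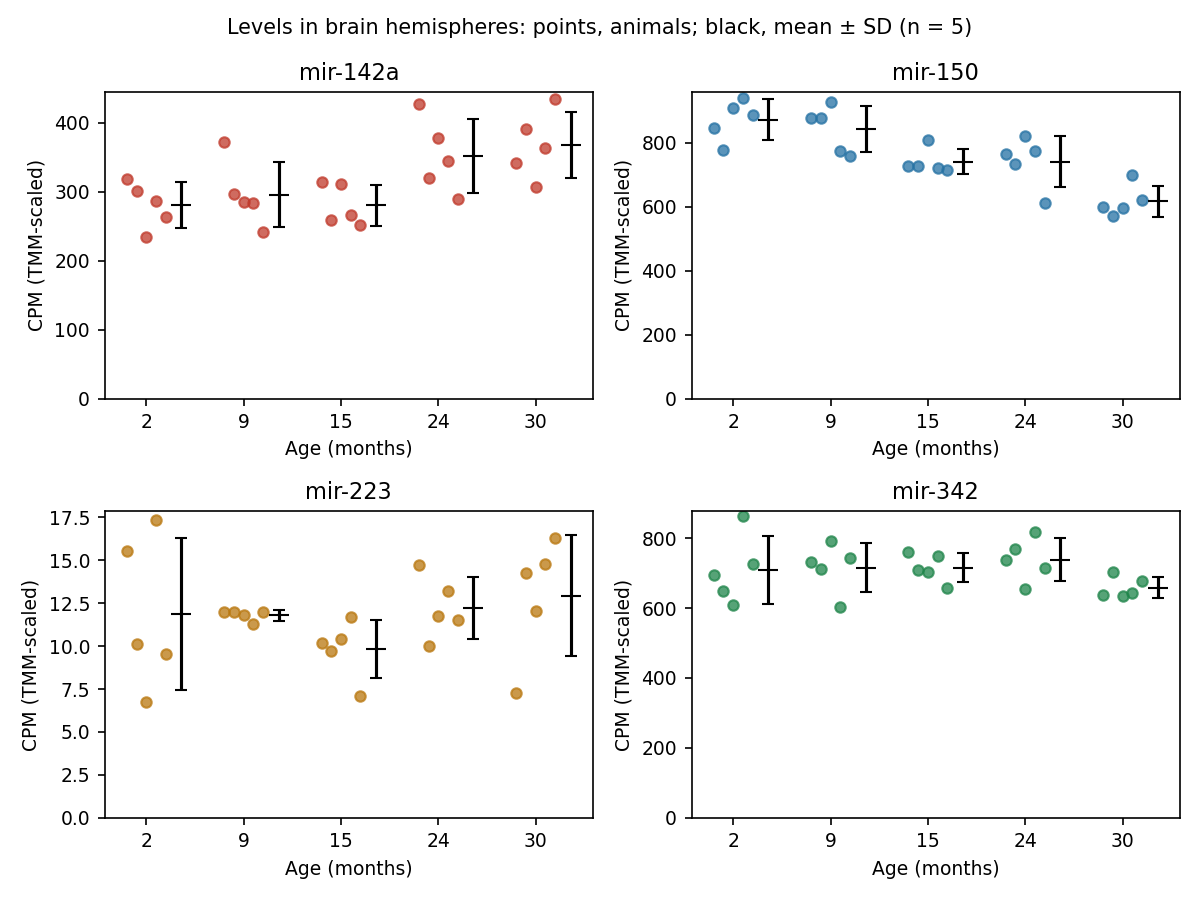
TMM-scaled CPM (y axis, from 0) of mir-142a, mir-150, mir-223 and mir-342 in each of the 25 animals, by age in months (x axis), with the mean ± SD of 5 animals in black. The mir-150 values at 30 months lie below all values at 2 months, while mir-142a, mir-342 and mir-223 overlap in each of the 5 comparisons of ages.

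mmu-mir-142a had 319, 301, 234, 286 and 263 CPM in the 5 animals of 2 months, and 372, 296, 285, 283 and 242 CPM at 9 months. It had 314, 259.6, 311, 266 and 251 CPM at 15 months, 428, 320.4, 377, 344 and 289 CPM at 24 months, and 342, 390.4, 307, 363 and 435 CPM at 30 months. The animals of 2 and 15 months covered much the same range, and those of 9 months did so apart from replicate 1, at 372 CPM. No animal of 24 or 30 months was under 289 CPM, and the 4 highest values of all were at those ages. In order of their means, 15 and 2 months were level (281 ± 29.8 and 281 ± 33.0 CPM, SD, n = 5), followed by 9 months (296 ± 47.2), 24 months (352 ± 53.4) and 30 months (367 ± 48.3). No neighbours in this order differed by more than their SD, apart from 24 and 9 months.

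Between 30 and 2 months mir-142a passed edgeR's quasi-likelihood test (adjusted p = 0.0119, Benjamini-Hochberg over the 425 precursors, threshold 0.05). The 95% interval of the log2 fold change was 0.15 to 0.63. Over all tested precursors 19.1% were called higher and 17.9% lower between these ages, so 2 calls among 4 precursors is a share near that of the whole table. Leaving out 30-month replicate 5, the highest animal of all, ended the call (0.28, adjusted p = 0.0612), as did leaving out 2-month replicate 3, the lowest of its age (0.30, adjusted p = 0.0535), and upper-quartile scaling in place of TMM (0.32, adjusted p = 0.0508).

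A linear slope over all 25 animals gave a rise in mir-142a of 0.18 ± 0.04 log2 units per 12 months (SE, adjusted p = 0.00262 in edgeR). A slope was called for 35.5% of all precursors, 19.5% upward and 16% downward. The call of the slope held in each of the 25 fits that left out 1 library (adjusted p from 0.00115 to 0.0126). A test for any difference among the 5 ages also passed (adjusted p = 0.0165; called for 32.7% of precursors). The largest step between neighbouring ages was 24 against 15 months, at 0.33 ± 0.12 (SE), and it did not pass after adjustment (adjusted p = 0.235 in edgeR). That comparison called 1 precursor in all, or 0.235%.

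mmu-mir-150 had 845, 776, 909, 940.4 and 888 CPM in the animals of 2 months and 879, 879, 927, 773 and 759 CPM at 9 months. It had 729, 728, 809, 721 and 715 CPM at 15 months, 764, 733, 823, 774 and 612 CPM at 24 months, and 600.1, 572, 595, 698 and 621 CPM at 30 months. Each animal of 30 months lay below each animal of 2 months. Among the 425 precursors, 11.1% had 30-month values wholly below those of 2 months. The order of the means was 2 months (872 ± 63.7 CPM, SD, n = 5), 9 months (843 ± 73.2), 24 months (741 ± 78.9), 15 months (740.3 ± 38.8) and 30 months (617 ± 48.5). Neighbours at the top, 2 and 9 months, and in the middle, 24 and 15 months, differed by less than their SD.

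Between 30 and 2 months mir-150 passed the edgeR test (adjusted p = 1.37e-05), with a 95% interval of -0.65 to -0.34 for the log2 fold change. The slope was -0.20 ± 0.03 log2 units per 12 months (SE, adjusted p = 1.80e-05), and the 5 ages differed (adjusted p = 1.48e-04). The fall at 30 against 24 months was -0.26 ± 0.07 (SE, adjusted p = 0.0261 in edgeR), in a comparison that called 8.71% of precursors, 2.59% as lower. 3 settings ended that call: lane 3 left out (-0.28, adjusted p = 0.0504), a fit of these ages alone (-0.27, adjusted p = 0.0618) and 24-month replicate 4 left out (-0.25, adjusted p = 0.0626). mir-150 was the one member called in any comparison of neighbouring ages. At 9 against 2 months none of the 4 was called, where 7.76% of precursors were, and their log2 fold changes lay between -0.05 and 0.07.

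The step of mir-150 at 15 against 9 months, -0.19 ± 0.07 (SE), had an unadjusted p of 0.0183 and an adjusted p of 0.682 in edgeR. In that comparison edgeR called 0 of 425 precursors, with 27 (6.35%) at an unadjusted p under 0.05, and DESeq2 called 2. Between 24 and 15 months the difference of mir-150 was 0.00 ± 0.07 (SE). A departure of the age means from the straight line was not called for mir-150 (adjusted p = 0.323) or mir-142a (adjusted p = 0.560), with 7.06% of precursors called.

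**Figure D2:**
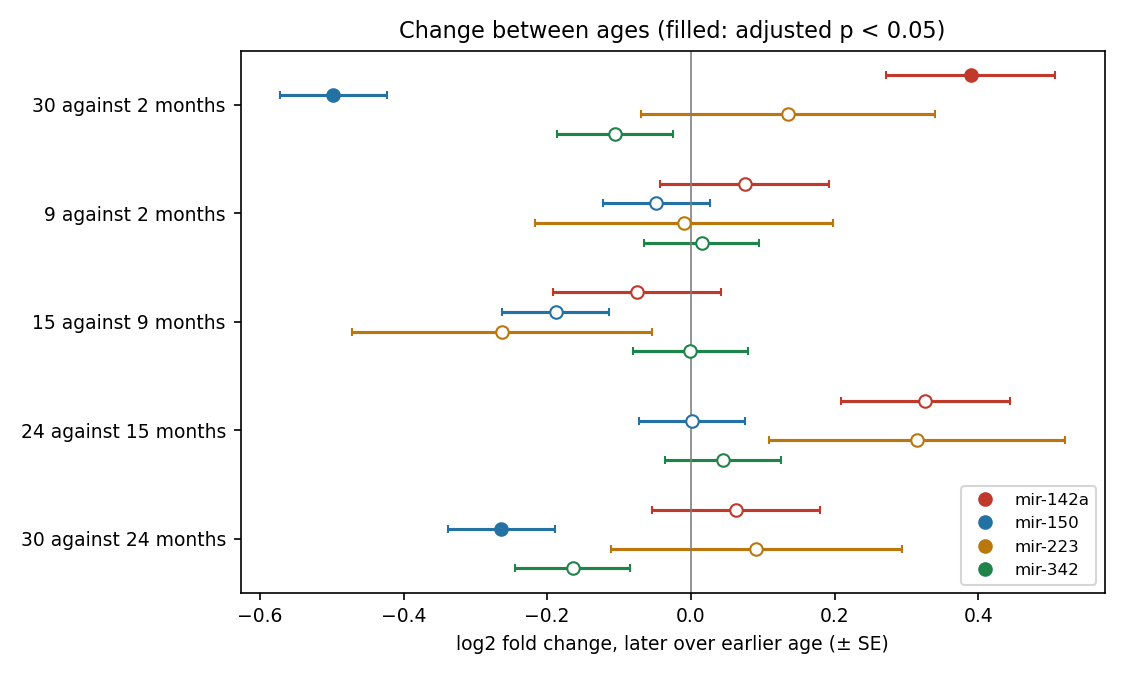
Log2 fold change of each precursor (x axis, later over earlier age, ± SE from edgeR) in 5 comparisons of ages (y axis), with filled points past an adjusted p of 0.05. mir-142a and mir-150 lie on opposite sides of 0 at 30 against 2 months, and mir-150 is the one filled point at 30 against 24 months.

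mmu-mir-223, the neutrophil and monocyte miRNA, had 15.5, 10.1, 6.77, 17.3 and 9.56 CPM in the animals of 2 months. It had 11.98, 12.01, 11.81, 11.26 and 11.97 CPM at 9 months, 10.2, 9.70, 10.4, 11.7 and 7.08 CPM at 15 months, and 14.7, 10.02, 11.7, 13.2 and 11.5 CPM at 24 months. At 30 months it had 7.25, 14.3, 12.1, 14.8 and 16.3 CPM. The ages overlapped throughout. The animals of 2 months spanned the whole range over all ages, and those of 30 months nearly did so. The means from low to high were 15 months (9.81 ± 1.70 CPM, SD, n = 5), 9 months (11.8 ± 0.315), 2 months (11.9 ± 4.41), 24 months (12.2 ± 1.802) and 30 months (12.9 ± 3.52). Apart from 9 and 15 months, neighbours in this order differed by less than their SD.

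The log2 fold change of mir-223 at 30 against 2 months was 0.14 ± 0.20 (SE, adjusted p = 0.629 in edgeR), with a 95% interval of -0.29 to 0.56. A change as large as that of mir-142a lies inside this interval. What widens it was not tested. Lane accounted for 64.3% of the variance of log2 mir-223 levels and age for 14.0%. Over all precursors the medians were 23.4% for lane and 33.3% for age. Each share comes from a separate fit, and a factor without any effect also takes up some variance. Lanes and ages were not fully crossed. The lane means of mir-223 ran from 8.09 CPM in lane 5 to 14.6 CPM in lane 6, each over 4 libraries of different ages. With lane as a covariate the estimate was 0.14 ± 0.14 (SE, adjusted p = 0.476).

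mmu-mir-342 had 694, 648, 609.6, 864 and 727 CPM in the animals of 2 months and 732, 711, 792, 602 and 743 CPM at 9 months. It had 761, 708, 702, 749 and 658 CPM at 15 months, 736, 770.2, 654, 817 and 714 CPM at 24 months, and 636, 702, 635, 642 and 679 CPM at 30 months. The 30-month animals were the lowest on average and the closest to each other, and they overlapped with every other age. The means were 738 ± 61.0 CPM at 24 months, 716 ± 70.5 at 9 months, 716 ± 41.2 at 15 months, 709 ± 97.6 at 2 months and 659 ± 30.1 at 30 months (SD, n = 5). No neighbours in this order but 2 and 30 months differed by more than the smaller of their SDs.

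At 30 against 2 months mir-342 differed by -0.11 ± 0.08 on the log2 scale (SE, adjusted p = 0.337 in edgeR), with a 95% interval of -0.27 to 0.06. The interval leaves out a fall as large as that of mir-150. The difference at 30 against 24 months was -0.16 ± 0.08 (SE, unadjusted p = 0.0525, adjusted p = 0.222). Lane accounted for 45.2% of the variance of mir-342 and age for 17.6%, and lane 5 was the lowest lane for mir-342 (mean 626 CPM) as it was for mir-223. For mir-150 these shares were 3.17% for lane and 73.0% for age, and for mir-142a 25.1% and 47.9%. The limits given with the shares of mir-223 hold for these as well.

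The spread between animals of an age differed among the precursors. The coefficient of variation was between 5.25% and 10.6% for mir-150, between 4.58% and 13.8% for mir-342 and between 10.6% and 16.0% for mir-142a. For mir-223 it was between 2.67% and 37.1%.

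Ratios of reads within a library need no scaling between libraries and test directly whether members moved apart. The ratio of mir-142a to mir-150 had a mean of 0.598 ± 0.0880 at 30 months and 0.324 ± 0.0558 at 2 months (SD, n = 5). Its range was 0.516 to 0.700 at 30 months against 0.258 to 0.387 at 2 months, so the ages did not overlap. The means at 9, 15 and 24 months, 0.350, 0.379 and 0.474, lay between these and rose with age. The difference of the log2 ratio was 0.89 (exact two-sided permutation test over 10 libraries, p = 0.00794, adjusted p = 0.0159 over the 6 pairs of members). This p is the smallest that 5 against 5 animals can give. How often ratios of other precursor pairs differ between these ages was not tested.

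The ratio of mir-142a to mir-342 was 0.557 ± 0.0565 at 30 months and 0.400 ± 0.0593 at 2 months (SD, n = 5), a log2 difference of 0.48 (exact permutation p = 0.00794, adjusted p = 0.0159). The ratio of mir-150 to mir-342 was 0.940 ± 0.0975 at 30 months and 1.24 ± 0.149 at 2 months, a log2 difference of -0.40 (exact permutation p = 0.00794, adjusted p = 0.0159). In neither ratio did the ages overlap, but the gap was narrow: the first ran from 0.484 to 0.640 at 30 months against 0.331 to 0.464 at 2 months, and the second from 0.815 to 1.088 at 30 months against 1.089 to 1.492 at 2 months. The 3 ratios with mir-223 did not pass, with log2 differences of 0.23 for mir-142a to mir-223, -0.65 for mir-150 to mir-223 and 0.25 for mir-223 to mir-342 (adjusted p from exact permutation tests between 0.0952 and 0.413).

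**Figure D3:**
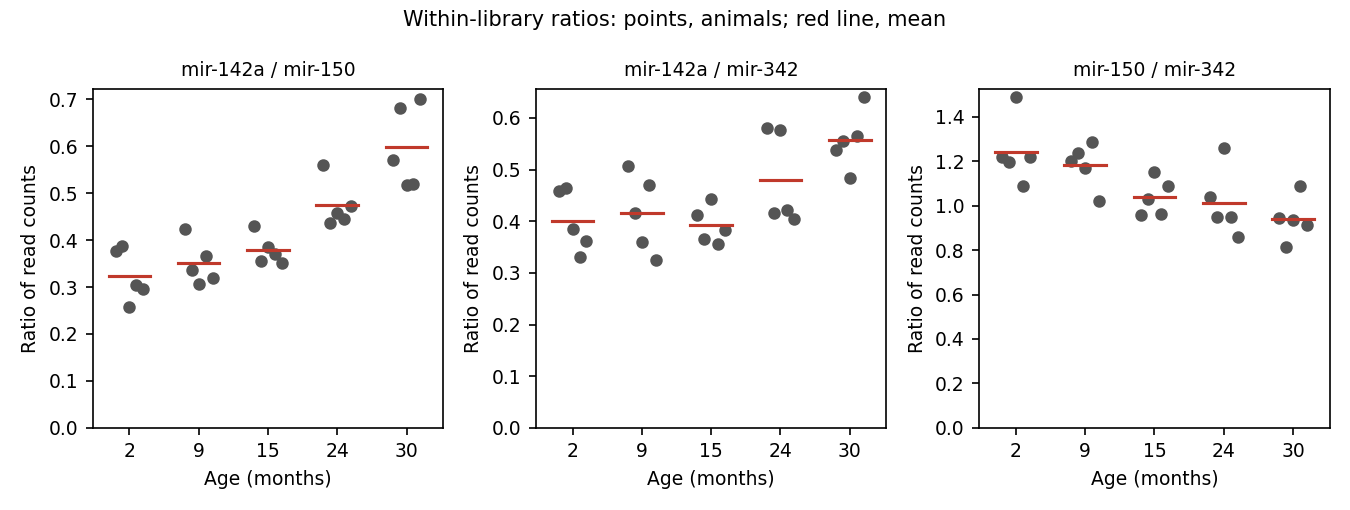
Ratios of read counts within each library (y axis, from 0) for mir-142a to mir-150, mir-142a to mir-342 and mir-150 to mir-342, by age in months (x axis), with 1 point per animal and the mean as a red line. The ratio of mir-142a to mir-150 has a mean of 0.598 at 30 months and 0.324 at 2 months.

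Lanes 3, 5, 6 and 7 each held 1 library of 30 and 1 of 2 months. Within them the difference of log2(CPM + 0.5), 30 minus 2 months, was 0.45, 0.54, 0.45 and 0.23 for mir-142a. For mir-150 it was -0.44, -0.60, -0.72 and -0.58. The mir-142a differences were above 0 and those of mir-150 below 0 in all 4 lanes. These libraries are also part of the pooled comparison, so the lanes are not separate evidence. For mir-150, whose values at these ages did not overlap, no other sign was possible. For mir-223 the lane differences were 0.07, 0.09, -0.27 and 0.32, and for mir-342 they were -0.03, 0.06, -0.30 and -0.20, on both sides of 0. With lane as a covariate in edgeR, mir-142a had 0.36 ± 0.11 (SE, adjusted p = 0.0169) and mir-150 -0.54 ± 0.07 (SE, adjusted p = 1.04e-05).

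**Figure D4:**
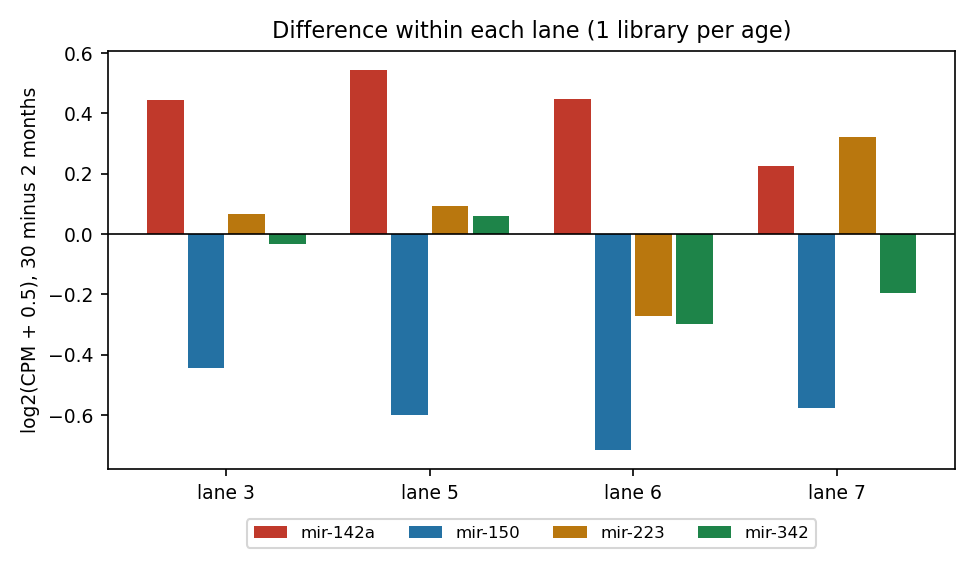
Difference of log2(CPM + 0.5) at 30 minus 2 months (y axis) within each of the 4 lanes that held a library of both ages (x axis), with 1 bar per precursor. The mir-142a bars are above 0 and the mir-150 bars below 0 in all 4 lanes, while mir-223 and mir-342 have bars on both sides. The libraries are also part of the pooled comparison.

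Red-cell miRNAs were read as a measure of blood RNA in the hemispheres. The erythroid precursors mir-451a, mir-451b, mir-144, mir-486a and mir-486b were all detected, and their sum was 2347 to 3880 CPM at 2 months, 3029 to 9118 CPM at 9 months, 2365 to 4535 CPM at 15 months, 2854 to 6400 CPM at 24 months and 2803 to 5785 CPM at 30 months. None of the 5 was called between 30 and 2 months, and their median log2 fold change was 0.50, against 0.05 over all 425 precursors. The most abundant, mir-486a, had 0.18 ± 0.26 (SE, adjusted p = 0.610 in edgeR). Larger values were those of mir-451a, 0.51 ± 0.34, and mir-144, 0.79 ± 0.36 (SE, adjusted p = 0.256 and 0.0828). The ranges of the sum overlapped between all ages. mir-451a with mir-451b, and mir-486a with mir-486b, are opposite strands of 1 hairpin each, and are not separate measurements. Whether the brains were perfused is not given in the sources used here.

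Over 10 relations, which were the 6 pairs of members and each member with the erythroid sum, none passed across the 25 libraries after adjustment. The strongest was mir-142a with mir-223 (Pearson r = 0.54, permutation p = 0.00514, adjusted p = 0.0514; Spearman rho = 0.54, adjusted p = 0.0651; r = 0.43 without the 2 libraries farthest from the median of mir-142a). As deviations from the age means, mir-142a and mir-223 gave r = 0.52 (permutation, adjusted p = 0.0388) and rho = 0.63 (adjusted p = 0.00900), with r = 0.54 without the 2 farthest libraries. As deviations from the lane means they gave r = 0.41 (permutation, adjusted p = 0.104). mir-223 with mir-342 gave r = 0.55 around the age means (permutation, adjusted p = 0.0388), but -0.11 around the lane means, so that relation did not hold within lanes. mir-142a with mir-150 gave r = -0.33 across all libraries, 0.36 around the age means and -0.47 around the lane means (adjusted permutation p from 0.0946 to 0.243). For deviations the permutations did not allow for the means that were removed, so those p-values tend to be too small. Values near the threshold, such as the permutation adjusted p of 0.0388, are therefore not read as passing.

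mir-142a and the erythroid sum gave r = 0.39 across the 25 libraries (permutation p = 0.0508, adjusted p = 0.170; rho = 0.37, adjusted p = 0.372; r = 0.51 without the 2 farthest libraries). Around the lane means r was 0.58 (permutation, adjusted p = 0.0227), with rho = 0.54 (adjusted p = 0.0591) and r = 0.41 without the 2 farthest libraries. Around the age means r was 0.34 (adjusted permutation p = 0.243), and 0.15 without the 2 farthest libraries. These permutations did not allow for the lane or age means removed, so their p-values tend to be too small. The permutation adjusted p of 0.0227 is therefore not read as passing. Without lane 3, r of mir-142a with the erythroid sum was 0.65 across the other 20 libraries (permutation, adjusted p = 0.0135). This is an alternative setting that keeps 9-month replicate 1, the library with the highest erythroid sum, and does not remove the age means. mir-150 and the erythroid sum gave r = 0.04 (permutation p = 0.843).

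A fit with the erythroid sum as a covariate was added after the data were seen. Between 30 and 2 months it gave 0.35 ± 0.12 for mir-142a (SE, adjusted p = 0.0186 in edgeR). For mir-150 it gave -0.51 ± 0.07 (SE, adjusted p = 1.13e-05). The largest parts of the sum were mir-486a and mir-486b (means of 1458 and 1450 CPM), against 468 CPM for mir-451a and 116 CPM for mir-144. The part of blood in either result was not tested. In bulk tissue, fewer cells of a type and less of the miRNA per cell cannot be told apart.

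**Figure D5:**
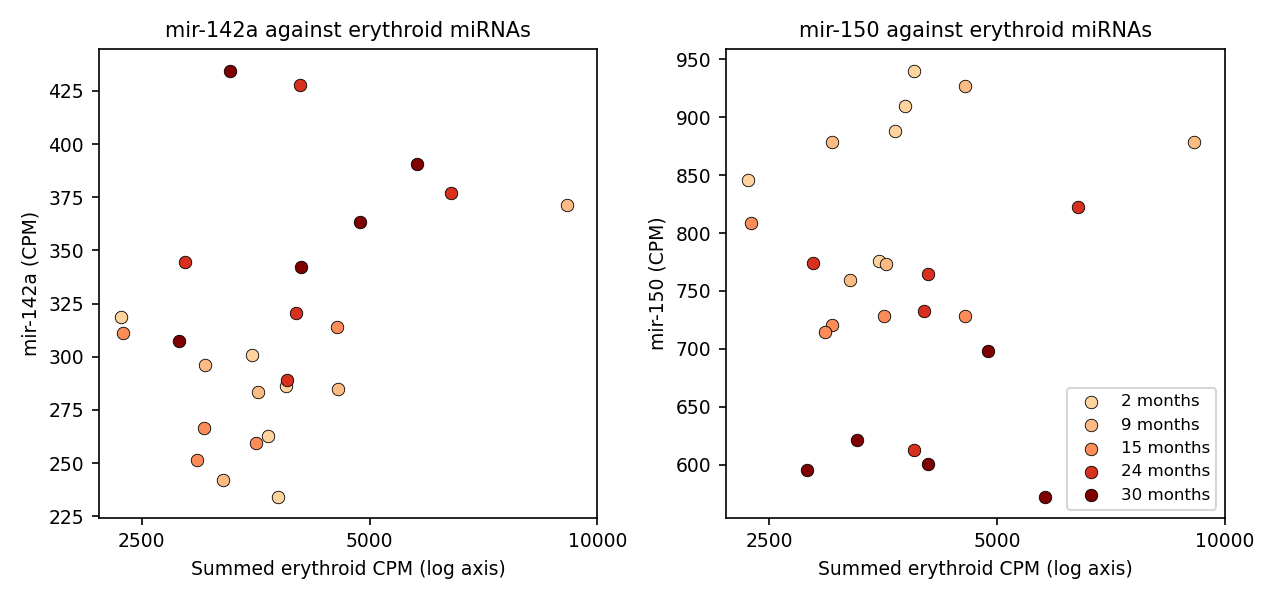
CPM of mir-142a (left) and mir-150 (right) in each of the 25 libraries (y axes do not start at 0) against the summed CPM of 5 erythroid precursors (log x axis), shaded by age. The library with the highest erythroid sum, 9118 CPM, is 9-month replicate 1, which also has the highest mir-142a of its age, 372 CPM.

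Other immune-cell miRNAs were read beside the members. Of mir-155, mir-146a, mir-146b, mir-21a, mir-147, mir-511 and mir-142b, 5 were called higher between 30 and 2 months and none lower, against 19.1% higher over all tested precursors. The median log2 fold change of the list was 0.47, against 0.05 over all. The list was chosen with earlier results of these data known, so this share is not independent support. The uncalled mir-147 and mir-511 had few reads, 5 to 23 and 2 to 18 per library. Their log2 fold changes were 0.43 ± 0.26 and -0.17 ± 0.25 (SE, adjusted p = 0.206 and 0.682 in edgeR). The calls were those of mir-155, mir-146a, mir-146b, mir-21a and mir-142b, and the last counts the same locus as mir-142a (0.39 ± 0.13, SE, adjusted p = 0.0171 in edgeR). mir-155, which rises in activated lymphocytes and macrophages, had 11.1, 13.3, 6.87, 14.8 and 9.53 CPM at 30 months against 4.63, 5.07, 3.79, 4.47 and 3.19 CPM at 2 months. mir-146a, a brake on inflammatory signalling, was higher by 0.99 ± 0.13 on the log2 scale (SE, adjusted p = 3.90e-06 in edgeR) and its relative mir-146b by 0.48 ± 0.14 (SE, adjusted p = 0.00934). The widely expressed mir-21a was higher by 0.47 ± 0.07 (SE, adjusted p = 1.34e-05) and mir-155 by 1.39 ± 0.26 (SE, adjusted p = 2.25e-04). The part of these in the mir-142a result was not tested. None of the 3 neuronal mir-124 copies, of the endothelial and mural mir-126a, mir-143 and mir-145a, or of the choroid plexus mir-204 and mir-211 was called between 30 and 2 months, with list medians of 0.09, -0.00 and 0.25. The most abundant of each list had log2 fold changes of 0.10 ± 0.05 for mir-124-1, -0.00 ± 0.05 for mir-143 and 0.15 ± 0.08 for mir-204 (SE, adjusted p between 0.126 and 0.952 in edgeR). In the tests over all ages, mir-204 had a slope of 0.08 ± 0.03 log2 units per 12 months (SE, adjusted p = 0.0436 in edgeR), and mir-143 differed among the 5 ages (adjusted p = 0.0372). Their part in the results of mir-142a and mir-150 was not tested.

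The precursors most like each member were taken by Pearson r of log2(CPM + 0.5) over the 25 libraries, among those with a mean of at least 10 CPM. These values are descriptions over libraries that share lanes and ages. For mir-142a, with mir-142b left out as the same locus, they were mir-92a-2 (r = 0.81), mir-339 (0.79) and mir-92a-1 (0.77), against a median r of 0.08. For mir-150 they were mir-337 (0.77), mir-935 (0.72) and mir-138-1 (0.69), against a median of -0.10. For mir-342 they were mir-193b (0.64), mir-331 (0.62) and mir-191 (0.60), and for mir-223 they were mir-382 (0.61), mir-142a (0.54) and mir-142b (0.54).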

How the data were processed

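The deposited table holds raw read counts of miRNA hairpins in 25 libraries. Per the labels' protocols a TruSeq kit for small RNA was used. No molecular identifiers are mentioned, so read counts may include PCR copies. Tools listed in the submitters' processing notes are SAMtools 1.3.1-9, Trimmomatic 0.36 and bcl2fastq 1.8.4. The aligner, counter, strand use, handling of multi-mapping reads and build: not given in the sources used here. Ages came from the labels, lanes from the column names.

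All 25 libraries entered 1 edgeR 4.0.16 quasi-likelihood fit (R 4.3.3) with a mean per age, TMM factors from 0.952 to 1.04 and filterByExpr, which kept 425 precursors and set aside 768. SE is the log2 fold change over the square root of F. DESeq2 1.42.0 was an alternative. Permutations used 100000 resamples for correlations (scipy 1.17.1) and all divisions for ratios. The fitting was run on simulated counts with the same spread setting for all precursors and no lane effect. That check does not cover the lane effects or unequal spread of these data. Replicate pairs differed by 19.6 to 304 in chi-square per degree of freedom (50 pairs), so none was treated as a duplicate. The members, lists and tests were chosen with earlier results of these data known. The text names the 4 members, the members of the marker lists by count, with values for those called between 30 and 2 months and the most abundant of each, and the 3 precursors most like each member. Values of the uncalled mir-147, mir-511, mir-144 and mir-451a are given as well.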

Additional observations from a re-analysis of the deposited data

Results flagged for a closer look

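Of 20 groups of 5 animals, each a member at an age, 2 held an animal that stood apart by Dixon's criterion, where chance gives about 1 in 20. mir-150 in 15-month replicate 3 had 809 CPM, against 715 to 729 CPM in the other 4 animals of that age. mir-223 in 9-month replicate 4 had 11.26 CPM against 11.81 to 12.01 CPM, a narrow gap in the age with the smallest spread.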

How the results depend on the processing

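The call of mir-150 at 30 against 2 months held under the 11 other settings and the 25 fits without 1 library. The calls of mir-150 and mir-142a for slope and among the 5 ages held under the 10 settings that could give them and the same 25 fits. At 30 against 2 months mir-142a lost its call under upper-quartile scaling (0.32, adjusted p = 0.0508). Leaving out 1 library gave 0.28 to 0.42 for mir-142a, -0.58 to -0.48 for mir-150, -0.041 to 0.30 for mir-223 and -0.19 to -0.03 for mir-342. Upper-quartile scaling called 50 precursors higher and 91 lower, against 81 and 76. The cause of these changes was not tested.

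Small log2 differences of uncalled comparisons changed sign. For mir-150 at 24 against 15 months they were -0.011 under RLE scaling, -0.011 in DESeq2, -0.0070 with only the 2 ages, -0.0054 with lane as covariate, -0.0020 with no filter, -0.020 with the erythroid covariate and -0.015 with mir-142a and mir-142b summed (range without 1 library -0.031 to 0.047). For mir-342 at 9 against 2 months upper-quartile scaling gave -0.015 (-0.039 to 0.10 without 1 library). For mir-342 at 15 against 9 months it was 0.0091 with no filter, 0.0067 with the erythroid covariate, 0.0046 with only the 2 ages, 0.0045 with the sum and 0.018 with lane (-0.042 to 0.041). For mir-342 at 24 against 15 months it was -0.011 with lane and -0.0011 without lane 3. For mir-142a at 30 against 24 months it was -0.00023 under upper-quartile scaling and -0.039 without lane 3 (-0.029 to 0.13). For mir-223 at 9 against 2 months it was 0.015 with no filter, 0.11 without lane 3, 0.014 with the erythroid covariate and 0.0067 with the sum (-0.16 to 0.18), and at 30 against 24 months -0.013 without lane 3 (-0.040 to 0.21). Without 1 library, mir-142a ran from -0.023 to 0.13 at 9 against 2 months and from -0.14 to 0.010 at 15 against 9 months. The correlation of mir-150 with mir-223 was 0.033 without lane 3.

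Counts of called precursors at 9 against 2 months were 33 as reported, 15 with no filter, 9 with only the 2 ages, 50 with lane and 21 with the erythroid covariate, and 19 to 39 without 1 library. At 15 against 9 months 0 became 1 with library totals and 2 with DESeq2 (0 to 1). At 24 against 15 months 1 became 0 under upper-quartile scaling, no filter, a mean of at least 10 CPM, without lane 3 and with the erythroid covariate, and 2 with DESeq2 and lane (0 to 1). At 30 against 24 months 37 became 20 with no filter and 19 with only the 2 ages (16 to 53). Departures from the line were 30, then 19 under upper-quartile scaling and no filter and 53 with lane (19 to 39). Without lane 3, the 3 called ratios kept their values (0.88, 0.48 and -0.40, exact permutation, adjusted p = 0.0571) and no longer passed. The ages still did not overlap in these ratios. With fewer libraries per age the smallest exact p is larger, so these lost calls do not show a dependence on lane 3. Without 30-month replicate 1, the ratio of mir-150 to mir-223 was -0.84 (exact permutation, adjusted p = 0.0476). No paired analysis was possible because the labels give the animals of different ages no shared replicate numbers. Lane, which does tie libraries of different ages, was used as a covariate. The erythroid covariate and the sum were added after seeing the data. Intervals are widest for mir-223, which has the fewest reads of the 4 and the highest share of variance by lane.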
